A study of Mus musculus with 8 samples.

Results

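Long direct RNA reads of mouse brain were counted on 22430 genes, and 10 of them are described here: the structural microtubule-associated proteins Map1a, Map1b, Map2, Map4, Map6 and Mapt, and the stathmins Stmn1, Stmn2, Stmn3 and Stmn4. They were taken from the count table by Ensembl identifier, and all 10 had enough reads to be tested between the ages. The group was proposed with their change between the ages already known, so the change of each member with age is given below as a description, with its error and without a p-value of its own, and calls and counts past a threshold only place the members in the table. The libraries came from 8 male C57Bl/6JRj mice, an inbred strain, with 1 library per mouse. The 6m group held 4 young adult mice aged 6 months and the 24m group held 4 aged mice aged 24 months. The labels name no transgene and no treatment, and RNA was taken from a whole brain hemisphere, so that all regions and cell types of the brain contributed to each value. A lower value in such bulk RNA can come from fewer cells of a type or from less RNA per cell, and these cannot be told apart.

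Microtubules are hollow polymers of α- and β-tubulin that carry transport along axons and dendrites and give a neuron its shape. Structural microtubule-associated proteins bind along the polymer and stabilize, space or bundle it, whereas stathmins bind free tubulin dimers and favour disassembly, and both groups are regulated by phosphorylation. In neurons MAP2 is found mainly in dendrites and the cell body and tau, encoded by Mapt, mainly in axons. MAP1B is prominent in growing axons of the developing brain, MAP1A in mature neurons, and MAP4 is the widely expressed relative of tau and MAP2.

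The members fall into families with related coding sequences, which matters for long reads counted by gene. Among the 4 stathmins, the annotated coding sequences were 69.5% to 74.3% identical in pairs, counted over the bases aligned without gaps. To show how far the reads of the family can be told apart, the 30 bases of Stmn1 at the place where it matches the other stathmins best are given 5′ to 3′ on the coding strand, with GRCm39 coordinates. Capitals mark the bases that differ from Stmn1.
Stmn1 (chr4:134200202-134200231, plus strand, exon 4): aacttcagcaagatggcggaggagaagctg
Stmn2 (chr3:8619939-8619968, plus strand, exon 4): aacttcagcaagatggcggaggagaagctg
Stmn3 (chr2:180949084-180949113, minus strand, exon 4): aacttTagcCGCCtggcggaggagaagctC
Stmn4 (chr14:66595382-66595411, plus strand, exon 5): aacttcaTcaagatggcAAaAgagaagctg
Stmn1 and Stmn2 were the same over this window, and 43 bases was the longest run that they shared anywhere in their coding sequences. The other stathmin pairs shared at most 21 bases in a row.

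The same was done for the tau family, with the capitals marking differences from Mapt.
Mapt (chr11:104218810-104218839, plus strand, exon 11): aagctgaccttcagggagaatgccaaagcc
Map2 (chr1:66477963-66477992, plus strand, exon 15): aagTtgaActtcagAgagCatgcAaaGgcc
Map4 (chr9:109908878-109908907, plus strand, exon 18): aagTtgaActtcaAggagaaGgccCaagcc
Even in this best matching window Map2 differed from Mapt at 6 bases and Map4 at 5. Over the bases of the coding sequences that aligned without gaps, Mapt was 65.5% identical to Map2 and 64.4% to Map4. These were 1879 and 1858 bases, where the coding sequence of Map2 has 5484 bases and that of Map4 6555. On the same measure Map1a was 68.3% identical to Map1b over 6368 bases. No annotated transcript of another gene matched any of the 10 canonical transcripts at an identity of at least 95% over at least 50% of its length.

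Reads on genes added up to between 573152 and 1255424 per library, so that 3 counts, the most that a count of 0 allows, corresponded to 2.30 to 5.42 CPM. CPM are counts scaled to a library total of 1000000, after adjustment of the totals by TMM (trimmed mean of M-values), and intervals on them cover counting error or the spread between these libraries only. Among the aged libraries replicate 1 stood apart on the second principal component of log2 CPM, at 38.4 against values of -17.5 to 7.48 for the other 7 libraries. In the summed CPM of the marker lists, 10 neuronal genes stood at 4224 to 4418 in the 6m libraries and at 5395 to 6597 in the 24m libraries, with a median log2 fold change (log2FC, 24m against 6m) of 0.63. Oligodendrocyte markers summed to 2070.4 to 2633 and 2873 to 3726, microglial markers to 675 to 745 and 845 to 1084, and red blood cell genes to 6090.3 to 10032 and 3350.4 to 6283. The red blood cell ranges overlapped between the ages. Astrocyte markers, at 2551 to 3034 and 2563 to 3298, overlapped too. So did endothelial markers, at 110 to 154 and 96.6 to 124, and immature neuron markers, at 41.8 to 56.0 and 46.8 to 77.7. Oligodendrocyte progenitor markers, at 98.3 to 136 and 139 to 196, did not. These values stood beside every change described below, and their part in the members' values was not tested.

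A gene was called changed where edgeR's quasi-likelihood test gave an adjusted p of at most 0.05 (Benjamini-Hochberg, over the 9375 genes tested) and the absolute log2FC was at least 0.58. Over all tested genes 4.17% were called lower at 24m and 10.3% higher. Of the 10 members, Map1b, Map2 and Mapt were past both thresholds, all lower at 24m, and none was called higher. By the adjusted edgeR p of at most 0.05 alone, 2 members were higher and 5 lower. Of all tested genes 21.7% passed this threshold in either direction and 9.42% were lower. DESeq2 on raw counts called 0 members higher and 3 lower, beside 629 and 205 of the 9375 genes. The median log2FC of the members was -0.18, beside -0.003 over all tested genes. The libraries of the ages did not overlap for Map1b, Map2, Map6 and Mapt, which lay lower at 24m, nor for Map4, which lay higher. Over all tested genes 9.96% did not overlap with 24m lower and 11.1% with 24m higher. Because the members were chosen on this contrast, nothing is read from these counts.

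**Figure D1:**
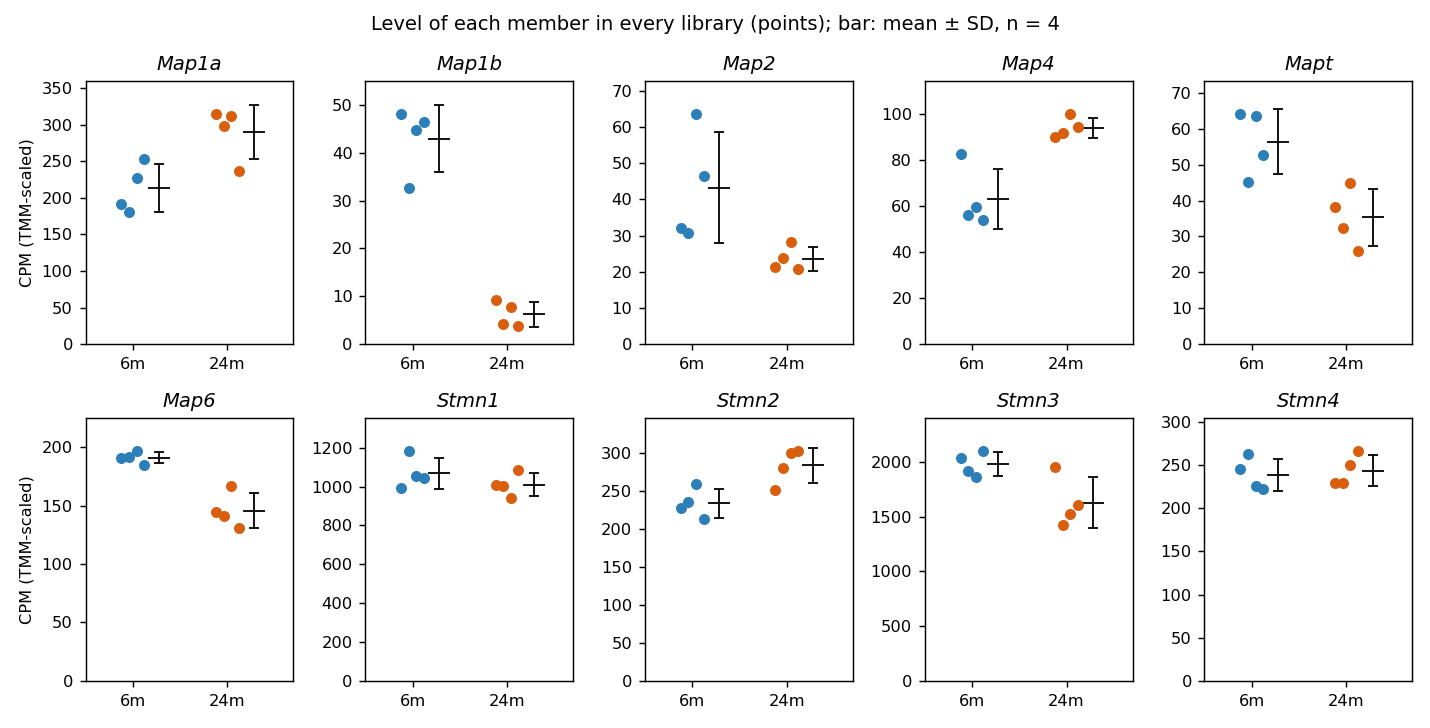
Level of each of the 10 members in CPM (vertical axis, scaled by TMM, starting at 0) in the 4 libraries of 6m and the 4 of 24m mice, each point 1 library and the bar the mean ± SD. The aged libraries of Map1b sit at 3.84 to 9.15 CPM, below all 6m libraries, while those of Stmn1 and Stmn4 overlap the young ones.

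Map1b and Map1a encode large paralogous proteins, each cut into a heavy and a light chain that bind microtubules, and their fitted changes had opposite signs, with Map1a not called. Map1b (ENSMUSG00000052727, chr13:99557954-99653137, minus strand) had 39, 18, 36 and 37 counts in the 6m libraries and 6, 4, 6 and 5 in the 24m libraries. Every aged library was well below every young one. With 4 libraries of each age the level fell from 43.0 ± 7.06 to 6.20 ± 2.62 CPM (mean ± SD), a log2FC of -2.90 with an SE of 0.294 (95% interval -3.50 to -2.29), or 0.134 of the 6m level. This was the most negative log2FC among the 9375 tested genes. Summed over libraries, the 130 young and 21 aged counts have exact Poisson intervals of 108.6 to 154 and 13.0 to 32.1. The spread between libraries was close to what counting alone gives at these depths, with a coefficient of variation of 16.4% at 6m beside a counting value of 17.5%, and 42.3% at 24m beside 43.6%.

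Map1a (ENSMUSG00000027254, chr2:121120071-121141313, plus strand) had 156, 100, 182 and 201 counts at 6m and 206, 287, 244 and 308 at 24m. In CPM the 6m libraries stood at 192, 181, 227 and 252 and the 24m libraries at 314, 298, 312 and 236. The 24m mean was the higher, but 24m replicate 4 lay within the young range. Mean and SD over 4 libraries were 213 ± 32.7 CPM at 6m against 290.2 ± 36.7 CPM at 24m, with a log2FC of 0.43 and an SE of 0.119 (95% interval 0.19 to 0.67), short of the fold threshold. Its last exon shares 309 bases with Ppip5k1 on the opposite strand, a gene at 39.0 ± 8.11 CPM at 6m and 45.5 ± 6.75 CPM at 24m, and the strand setting of the counting is not given in the sources used here.

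Within a library the balance of the MAP1 pair does not depend on the scaling. Map1b made up 20.0%, 15.3%, 16.5% and 15.5% of the summed Map1a and Map1b counts in the 6m libraries and 2.83%, 1.37%, 2.40% and 1.60% in the 24m libraries. The mean share went from 16.8% ± 2.18 to 2.05% ± 0.681 (SD, n = 4 each), with no overlap between the ages. The counts behind each share ranged from 118 to 313.

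Mapt, Map2 and Map4 encode the tau family, which share a carboxy-terminal microtubule-binding repeat region. Mapt (ENSMUSG00000018411, chr11:104122024-104222946, plus strand) had 52, 25, 51 and 42 counts at 6m and 25, 31, 35 and 34 at 24m. The equal counts of 6m replicate 2 and 24m replicate 1 come from libraries of different size, and in CPM the 6m libraries stood at 64.0, 45.2, 63.5 and 52.7 and the 24m libraries at 38.1, 32.2, 44.8 and 26.1. The groups did not overlap, but the lowest 6m and the highest 24m library were almost level. The mean fell from 56.4 ± 9.07 to 35.3 ± 8.01 CPM, with a log2FC of -0.74 and an SE of 0.189 (95% interval -1.12 to -0.35). Without 24m replicate 4, the lowest library, the log2FC was -0.57 and no longer past the fold threshold.

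Map2 (ENSMUSG00000015222, chr1:66214327-66481746, plus strand), the dendritic member, had 26, 17, 51 and 37 counts at 6m and 14, 23, 22 and 27 at 24m. In CPM these were 32.0, 30.7, 63.5 and 46.5 at 6m and 21.3, 23.9, 28.2 and 20.7 at 24m. The young libraries were widely spread and the aged ones close together. The coefficient of variation was 35.4% at 6m beside a counting value of 17.5%, and 14.4% at 24m beside 21.6%. The aged spread was thus below counting error, and nothing is read from its smallness. The mean fell from 43.2 ± 15.3 to 23.5 ± 3.38 CPM, with a log2FC of -0.91 and an SE of 0.234 (95% interval -1.39 to -0.43). The call rested on 6m replicate 3, the highest library, without which the log2FC was -0.65 and the gene was not called.

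Map4 (ENSMUSG00000032479, chr9:109751712-109913023, plus strand), the member found in most tissues, had 67, 31, 48 and 43 counts at 6m and 59, 88, 78 and 123 at 24m. In CPM the 6m libraries stood at 82.5, 56.1, 59.7 and 54.0, and the 24m libraries at 89.9, 91.5, 99.8 and 94.3. Each aged library was above each young one, and 6m replicate 1 was the nearest. The mean was 63.1 ± 13.2 CPM at 6m and 93.9 ± 4.35 CPM at 24m, with a log2FC of 0.56 and an SE of 0.155 (95% interval 0.25 to 0.88). This was just below the fold threshold, whereas Mapt was the called member nearest to it. Without 6m replicate 1 the log2FC of Map4 was 0.74 and without 24m replicate 1 it was 0.59, and in both fits the gene was called higher.

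The division of tau family counts within each library showed the 3 genes against each other. Map4 held 46.2%, 42.5%, 32.0% and 35.2% of their summed counts in the 6m libraries and 60.2%, 62.0%, 57.8% and 66.8% in the 24m libraries, a gain of 22.7 percentage points in the mean. Mapt went from 34.6% ± 0.837 to 22.9% ± 3.50, a difference of -11.7 points, and Map2 from 26.4% ± 7.18 to 15.4% ± 1.03, a difference of -11.0 points (SD, n = 4 each). For none of the 3 did the shares of the ages overlap. At 6m no gene held more than 50% in any library, and at 24m Map4 did so in all 4. The summed counts were 73 to 184 per library, so each share carries a wide counting error. The Mapt to Map4 ratio in CPM was 0.905 ± 0.137 at 6m and 0.375 ± 0.0776 at 24m.

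**Figure D2:**
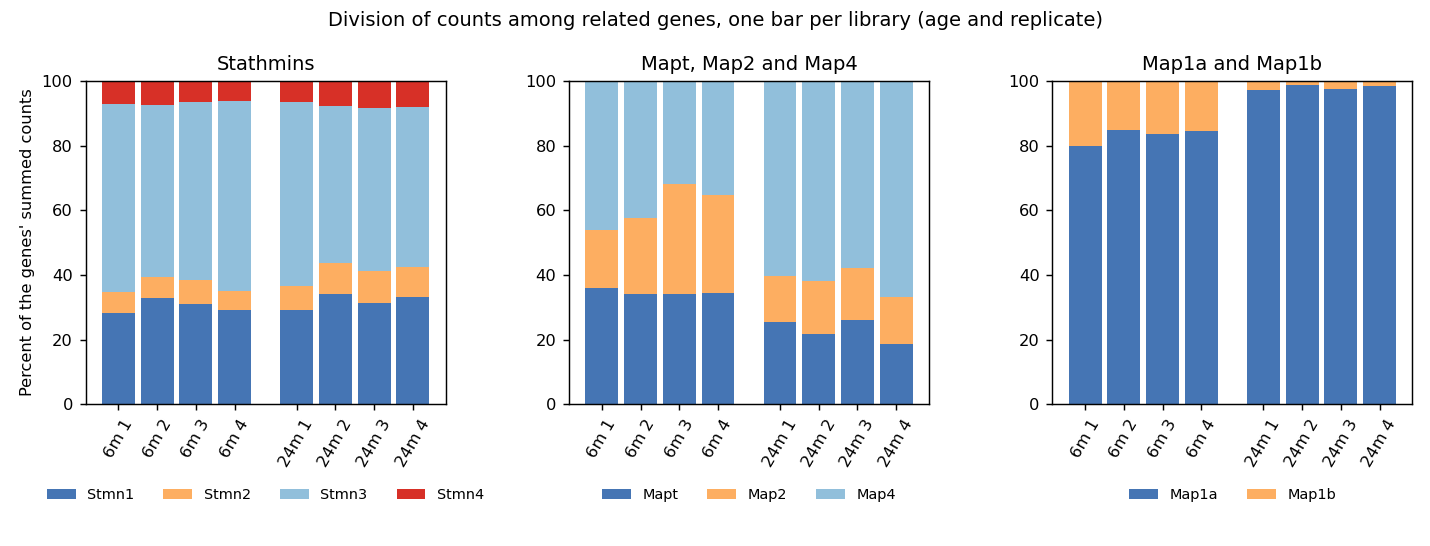
Percent of summed counts (vertical axis, 0 to 100) held by each gene within the related groups, 1 bar per library with its age and replicate. In the tau family Map4 takes 57.8% to 66.8% in the aged libraries, whereas the stathmin bars change little and Stmn3 holds about the same part in 24m replicate 1 as in the young mice.

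Map6 encodes the stable tubule-only polypeptide, which protects microtubules from cold and drugs. Map6 (ENSMUSG00000055407, chr7:98916530-98986344, plus strand) stood at 191, 192, 197 and 185 CPM in the 6m libraries and at 145, 141, 166 and 130.4 CPM in the 24m libraries. The young libraries were almost equal and all of them lay above the aged ones. Their coefficient of variation of 2.59% was below the counting value of 8.41%, so this closeness is no measure of precision. At 24m the coefficient was 10.3% beside a counting value of 8.68%. The mean went from 191 ± 4.95 to 146 ± 15.1 CPM, with a log2FC of -0.40 and an SE of 0.115 (95% interval -0.63 to -0.16), so that it remained under the fold threshold.

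Summed over the 6 structural genes, the level was 609 ± 51.7 CPM in young and 595 ± 62.1 CPM in aged libraries (SD, n = 4 each), and the libraries of the ages overlapped. Map1a and Map6 supplied most of these reads, so the sum says little of the rarer Map1b, Map2, Mapt and Map4.

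The stathmins had many more counts, and edgeR and DESeq2 called none of them. Stmn3 (ENSMUSG00000027581, chr2:180948247-180956293, minus strand), a palmitoylated neuronal stathmin also known as SCLIP, had 1656, 1062, 1499 and 1672 counts at 6m and 1283, 1372, 1194 and 2095 at 24m. In CPM these were 2038, 1920.3, 1866 and 2099.6 at 6m and 1956, 1426, 1528 and 1607 at 24m. Only 24m replicate 1, the library that stood apart, reached the young range. The mean was 1981 ± 107 CPM at 6m and 1629 ± 229.8 CPM at 24m, with a log2FC of -0.28 and an SE of 0.0945 (95% interval -0.48 to -0.09). Without 24m replicate 1 the log2FC was -0.37, and with DESeq2 on quantile-normalized counts it was -0.080.

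Stmn2 (ENSMUSG00000027500, chr3:8574151-8626667, plus strand), also known as SCG10 and tied to axon growth and repair, stood at 228, 235, 259 and 212 CPM at 6m and at 252, 279.7, 299 and 302 CPM at 24m. All but the first aged library lay above the young ones. The mean was 233 ± 19.4 CPM at 6m and 283 ± 23.4 CPM at 24m, with a log2FC of 0.28 and an SE of 0.104 (95% interval 0.07 to 0.50). Without 24m replicate 1 the log2FC was 0.34, still under the fold threshold.

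Stmn1 (ENSMUSG00000028832, chr4:134195021-134201882, plus strand), the founding and most widely expressed stathmin, stood at 995, 1183, 1053 and 1042 CPM at 6m and 1009, 1001, 943 and 1087 CPM at 24m. The ages overlapped, with a log2FC of -0.08 and an SE of 0.0864 (95% interval -0.25 to 0.10). Its direction is not set by these data, since scaling by library size alone gave 0.027. Stmn4 (ENSMUSG00000022044, chr14:66581745-66599131, plus strand), a neuronal stathmin also known as RB3, was at 239 ± 18.6 CPM at 6m and 243 ± 18.2 CPM at 24m. Its log2FC was 0.04 with an SE of 0.104, and the 95% interval of -0.18 to 0.25 excludes a change as large as the fold threshold, as does that of Stmn1.

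Together the stathmins summed to 3521 ± 88.6 CPM in young and 3166 ± 232 CPM in aged libraries (SD, n = 4 each), and the highest aged library, replicate 1 at 3445 CPM, lay above the lowest young one at 3403 CPM. Of the stathmin counts in each library, Stmn3 held 56.3% ± 2.59 at 6m and 51.3% ± 3.74 at 24m, Stmn1 30.3% ± 2.00 and 32.0% ± 2.17, Stmn2 6.64% ± 0.700 and 9.0% ± 1.17, and Stmn4 6.78% ± 0.462 and 7.71% ± 0.745. The shares of each gene overlapped between the ages. Without 24m replicate 1 the Stmn3 difference was -6.78 percentage points in place of -4.95.

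**Figure D3:**
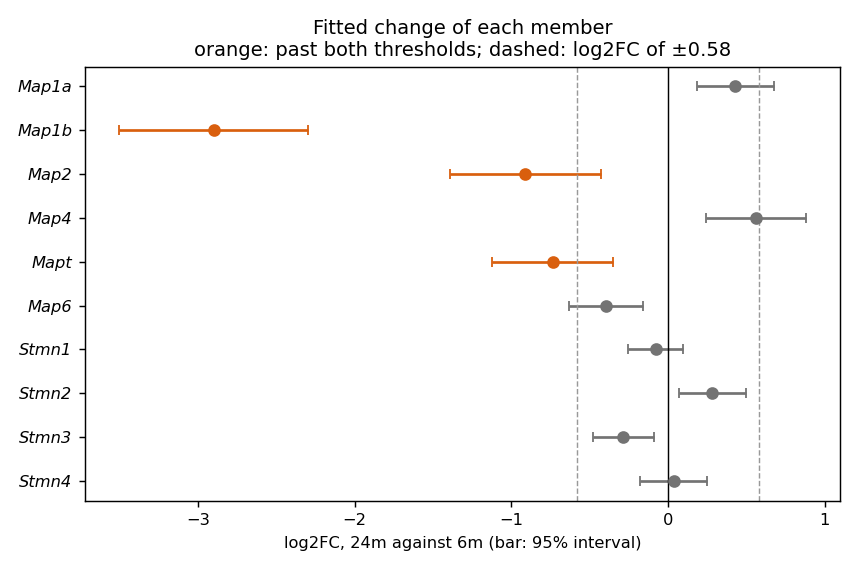
Fitted log2FC of each member, 24m against 6m (horizontal axis), with its 95% interval as a bar and the fold threshold of 0.58 in either direction as dashed lines. Map1b, at -2.90, lies far from the other 9, which range from -0.91 to 0.56.

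Levels of the members are set side by side per kb of transcript, a scale on which a long transcript counts less for the same number of reads. Per kb of the canonical transcript, Stmn3 stood at 1744 ± 94.2 CPM per kb at 6m, Stmn1 at 597 ± 45.0, Stmn4 at 182 ± 14.2 and Stmn2 at 109 ± 9.09. The structural genes followed at 53.7 ± 1.39 CPM per kb for Map6, 18.5 ± 2.84 for Map1a, 8.88 ± 1.43 for Mapt, 6.87 ± 1.43 for Map4, 4.45 ± 1.58 for Map2 and 3.61 ± 0.594 for Map1b. Of the neighbours in this order, Mapt and Map4, Map4 and Map2, and Map2 and Map1b overlapped between their libraries. At 24m the order on this scale was the same except that Map4, at 10.2 CPM per kb, stood above Mapt, at 5.56. Map1b ended at 0.522 CPM per kb. The order depends on the division by length, which may not suit direct RNA reads, where 1 read stands for about 1 molecule. By mean CPM without that division Map4 stood above Mapt at both ages, and at 6m Map1a, at 213 CPM, stood above Map6, at 191 CPM. At 6m the libraries of Mapt and Map4 overlapped, as did those of Map1a and Map6. At 24m Map1a, at 290.2 CPM, was level with Stmn2, at 283 CPM, and above the mean of Stmn4, at 243 CPM. Its libraries overlapped those of both stathmins.

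The transcripts of the structural genes are long, and direct RNA reads start at the 3′ end. The canonical Map1b transcript is 11893 bases long with a 3′ untranslated region of 4363 bases, and that of Map1a is 11539 bases long with one of 2748 bases. Map2 has 9705 bases, Map4 9178, Mapt 6345 and Map6 3555, whereas the stathmins have 1136 (Stmn3) to 2139 (Stmn2). In the whole table the median log2FC was -0.20 for genes up to 1 kb, -0.10 for 1 to 2 kb, where all stathmins but Stmn2 lie, and 0.10 for 3 to 5 kb. For the 487 genes over 8 kb it was -0.14, or -0.076 with the longest in place of the canonical transcript. Of these 487 genes 36 were called higher and 72 lower, whereas over all tested genes 10.3% were called higher and 4.17% lower. Map1a, Map1b, Map2 and Map4 all belong to the longest class, and 2 of them had a positive and 2 a negative log2FC. Genes over 8 kb took 1.84% to 2.03% of the counts in the 6m libraries and 1.82% to 2.03% in the 24m libraries, whereas genes up to 1 kb took 25.7% to 26.7% and 22.6% to 24.3%, with no overlap between the ages. The part of length in the members' values was not tested.

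**Figure D4:**
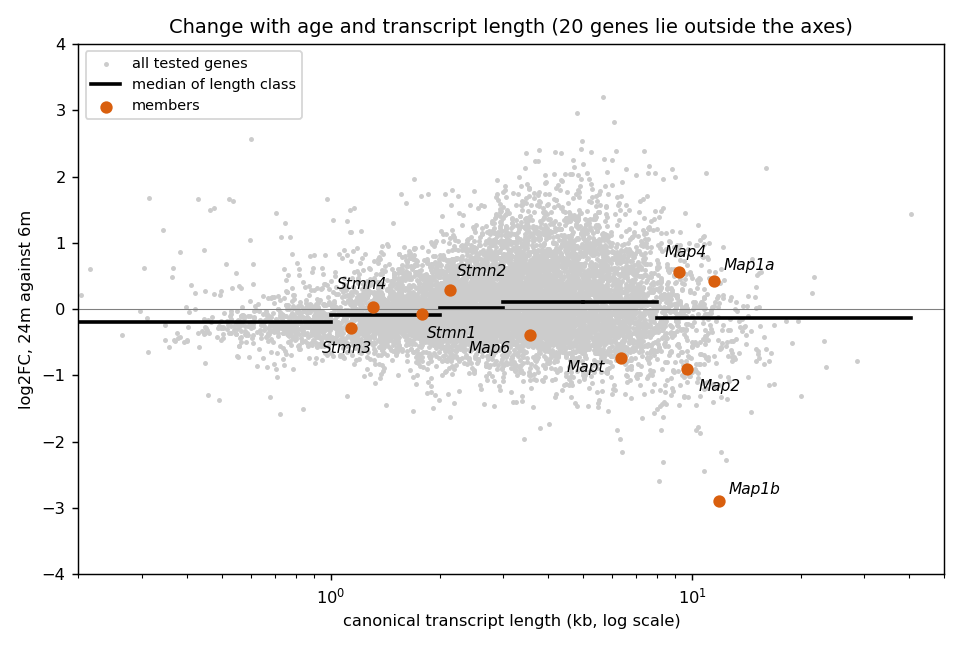
log2FC, 24m against 6m, against canonical transcript length in kb (log axis) for tested genes, with the members labelled and a black line at the median of each length class; 20 genes lie outside the axes. Map1a and Map1b have nearly the same length and lie on opposite sides of 0, at 0.43 and -2.90.

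The proteins that act beside the members were taken as 4 lists of 105 genes, of which 86 were tested. Of these, 12 were called higher and 5 lower at 24m, with a median log2FC of 0.01. Over all tested genes 10.3% were called higher and 4.17% lower, and nothing is read from the counts of calls in these lists. Among the other structural and tip-binding proteins, 32 of 42 were tested, and 5 were called higher (Mapre2, Clip2, Clip3, Tppp and Mtus2) and 3 lower (Ckap5, Macf1 and Clasp2). Ckap5, the tubulin polymerase of growing plus ends also known as chTOG, fell from 132 ± 0.508 to 72.9 ± 13.8 CPM, with a log2FC of -0.87, an SE of 0.144 and an adjusted p of 0.000133 (edgeR). Its 6m libraries had 108, 73, 106 and 105 counts. Counting error at such counts is larger than this 6m SD, which is therefore no measure of precision. Mapre2, which encodes the end-binding protein EB2, rose from 26.1 ± 5.99 to 57.7 ± 9.82 CPM, with a log2FC of 1.13, an SE of 0.200 and an adjusted p of 0.000275 (edgeR). The 6m libraries of both genes lay apart from the 24m libraries. Tppp, a tubulin polymerization-promoting protein best known in oligodendrocytes, had 1, 0, 1 and 1 counts at 6m and 7, 16, 5 and 11 at 24m, at least 2.54-fold higher against a limit of 3 counts per 6m library. Tppp and Mtus2 passed the filter on mean counts only through the 24m libraries, so their part in the 5 higher calls is no support for a direction of the list. Tppp rose beside the oligodendrocyte markers, of which 2 among 8 tested were called higher, Mbp with them, and none lower, beside 10.3% and 4.17% of all tested genes. Map1s, the short relative of Map1a and Map1b, was at 104 ± 6.63 CPM at 6m and 97.5 ± 11.8 CPM at 24m and was not called (adjusted p = 0.642, edgeR).

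Of 24 kinase, phosphatase and regulator genes that act on tau, other MAPs or stathmins, 23 were tested, and 7 were called higher, among them Mark2, Mark4, Cdk5r1, Cdk5r2, Csnk1d and Ppp2r2c, and 2 lower, Gsk3b and Mark3. Cdk5r1, which encodes the p35 activator of the tau kinase CDK5, rose from 9.27 ± 1.72 to 39.2 ± 14.1 CPM, with a log2FC of 2.04, an SE of 0.301 and an adjusted p of 3e-05 (edgeR). Cdk5 itself stood at 208 ± 16.9 CPM at 6m and 172 ± 9.79 CPM at 24m and was not called (adjusted p = 0.0743, edgeR). Ppp2r2c, a regulatory B subunit of protein phosphatase 2A, rose from 15.6 ± 7.16 to 54.6 ± 15.1 CPM, with a log2FC of 1.79, an SE of 0.264 and an adjusted p of 2.89e-05 (edgeR). It shares 2660 exon bases with Wfs1 on the opposite strand, a gene at 80.4 ± 15.7 CPM at 6m and 95.8 ± 12.8 CPM at 24m. Because the strand setting of the counting is not given, a part of Wfs1 reads in these values cannot be told apart. Gsk3b, whose product glycogen synthase kinase 3β phosphorylates tau and MAP1B, fell from 22.1 ± 5.10 to 5.11 ± 3.99 CPM, with a log2FC of -2.31, an SE of 0.411 and an adjusted p of 0.000291 (edgeR). It had 16, 9, 20 and 22 counts at 6m and 7, 3, 4 and 2 at 24m. Gsk3b thus passed the filter on mean counts only through the 6m libraries, and its call is no support for a direction of the list. Within the MARK family, which phosphorylates tau, MAP2 and MAP4, Mark2 had a log2FC of 0.80, Mark4 of 0.71 and Mark3 of -0.75. The list thus held called genes of both directions, with Mark3 the lower call apart from Gsk3b, and had a median log2FC of 0.18.

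No gene was called among 20 tested for severing, tubulin modification and tubulin folding, and DESeq2 also called 0. By the adjusted edgeR p of at most 0.05 alone, 1 was higher and 0 lower, beside 21.7% of all tested genes in either direction. Among 11 tested tubulin isotypes, the building blocks of the polymer, edgeR and DESeq2 also called 0, since no log2FC reached the fold threshold. For 6 of them the adjusted p alone was at most 0.05 (edgeR), all lower at 24m, beside 9.42% of all tested genes that were lower at this threshold: Tuba1a, Tubb5, Tuba1b, Tubb3, Tubb2a and Tubb4b, with log2FC from -0.37 to -0.28. The median of the isotypes was -0.28, equal to the log2FC of Stmn3.

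Markers of neurons differed in direction from Map1b, Map2 and Mapt, which are genes of neurons. Of 10 neuronal markers all had a positive log2FC and 6 were called higher, among them Syp with a log2FC of 0.97 and Thy1 with 0.68. Over all tested genes 4657 of 9375 had a positive log2FC, 10.3% were called higher and 4.17% lower. Of the immature neuron markers Dcx, which like Map1b belongs to growing neurons, was at 0 in every library, and of the 2 tested Nrep, with a log2FC of 1.09, was called higher and Dlx1, with -0.10, was not called. Sox4, too low to be tested, was at 6.65 ± 2.71 CPM at 6m and 3.19 ± 2.12 CPM at 24m. Sox11 and Igfbpl1, also too low to be tested, had 3 counts or fewer in every library and higher means at 24m. Sox11 was at 0.936 ± 1.19 CPM at 6m and 1.28 ± 0.956 CPM at 24m. Igfbpl1 was at 0.308 ± 0.615 CPM at 6m and 2.56 ± 1.19 CPM at 24m. Among 7 tested astrocyte genes, Gfap, Slc1a3 and Gja1 were called higher and Slc1a2 lower. The part of these marker shifts in the values of the members was not tested.

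For the members at either end, the genes with the most similar pattern over the 8 libraries were sought among 2720 genes with a mean count over 50 for Map1b and 2719 for Map4. Closest to Map1b were Cmip with a Pearson r of log2 CPM of 0.996, Polr2l with 0.979 and Cnot1 with 0.978. Closest to Map4 were Septin8 with 0.959, Anp32a with 0.936 and Dstn, an actin-depolymerizing factor, with 0.935. All of these libraries share the difference in age and in depth, so the coefficients describe the likeness and carry no test.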

How the data were processed

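The authors deposited raw read counts per gene, made, per their methods, from direct RNA reads (Oxford Nanopore, MinION) mapped to GRCm39 with minimap2 2.24 and counted on Ensembl genes with featureCounts. The submitters' labels name a poly(A) library kit instead, and the methods were followed. Strand and multi-mapping settings are not given in the sources used here. Of 22430 genes, 22281 matched the GENCODE vM39 annotation (GRCm39) by identifier, which gave symbols, positions and transcripts; the canonical transcript stands for each gene.

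Genes with a mean count over 5 (9375 of 22430, holding 98.4% to 98.8% of the counts) were tested between the ages with edgeR 4.0.16 in R 4.3.3, by its quasi-likelihood test with TMM factors and Benjamini-Hochberg adjustment. limma 3.58.1 (voom) and DESeq2 1.42.0, other scalings and filters and leaving out each library were alternatives. The log2 CPM used a prior count of 2. Coding sequences were aligned in pairs with Biopython 1.88 and copies searched with BLAST+ 2.17.0. The fits were tested on simulated data with 200 changed genes. The labels give replicate numbers and name no mouse, and 1 sample per mouse follows the methods. Replicate numbers did not pair the libraries: their deviations from the age means correlated at -0.160 to 0.0647.

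The members and lists were chosen with earlier results of these data known. Named from each list are called genes and, with full values, the 3 with the smallest p whose libraries did not overlap. Tubulin, marker and other genes beyond that rule were named after their values were seen. Some called genes of these lists are not reported here by name.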

Additional observations from a re-analysis of the deposited data

Results flagged for a closer look

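Of 48 groups of 4 libraries examined for a value far from the others by Dixon's criterion, 3 were flagged, where chance flags about 1 in 20. The library total of 6m replicate 2 was 573152, beside 818963 to 843706 in the other young libraries. Ckap5 stood at 132.9 CPM in 6m replicate 1, beside 131.9 to 132.0 in the other 3, a gap that is small beside the difference between the ages. Tppp stood at 0 CPM in 6m replicate 2, beside 1.23 to 1.26 in the other 3, which is a count of 0 beside a count of 1. No level of the 10 members was flagged.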

How the results depend on the processing

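Map1b, Map2 and Mapt were called lower under each scaling, tool and filter tried, except that Map1b did not enter the test with more than 5 counts in every library. With DESeq2 on raw counts 629 genes were called higher and 205 lower, with 0 members higher. One member, Map4, was called higher in 7 other settings. These were DESeq2 on quantile-normalized counts (1 higher, and 553 of all genes), library sizes alone (1 higher, 223 of all genes lower, 84.5% of calls higher beside 71.2%, with the median log2FC of all genes at 0.10), no filter (1), more than 5 counts in every library (1, and 222 of all genes lower), filterByExpr (1), the adjusted p alone (2 members higher and 5 lower, 13 listed genes and 883 of all genes lower) and the replicate block (1). The replicate block changed no other member's call. Map4 was also called without 6m replicate 1 and without 24m replicates 1 or 2. Leaving out 1 library gave 0 to 1 members higher and 2 to 3 lower, 8 to 12 and 4 to 5 of the listed genes, and 713 to 1132 and 276 to 462 of all genes. The share differences then ran from 0.953 to 2.56 percentage points for Stmn1, 2.06 to 2.93 for Stmn2, -6.78 to -4.05 for Stmn3, 0.749 to 1.29 for Stmn4, -12.7 to -10.2 for Mapt, -13.8 to -8.49 for Map2 and 20.4 to 25.1 for Map4. The log2FC of Stmn1 turned to 0.072 with quantile-normalized counts and 0.027 with library sizes alone. With the longest transcript in place of the canonical one, the median log2FC over 8 kb was -0.076. Between alternatives, Map1b ranged from -3.10 to -2.66. Apart from the alternatives' own construction the cause was not tested. At these depths Map1b rests on 4 to 6 counts per aged library and Map2 on 14 to 27.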
